A study of Rattus norvegicus with 2 samples.

Results

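Genes that buffer calcium in the cytosol or move it out of the cytosol were examined in lens epithelial cells (LECs) of Shumiya cataract rats (SCRs). The 10 genes, out of 18166 with a value, were 3 cytosolic buffers (*Pvalb*, *Calb1*, *Calb2*), 2 pumps of the endoplasmic reticulum (*Atp2a2*, *Atp2a3*), 3 pumps of the plasma membrane (*Atp2b1*, *Atp2b2*, *Atp2b4*) and 2 sodium-driven exchangers (*Slc24a2*, *Slc8a1*). They were listed by name for their role in calcium handling, with earlier results of these arrays known, and each was read from the only probe set that names it alone. Both groups were SCRs at 5 weeks of age. Rats with the *Lss*s/*Lss*s genotype, used for Cat-, keep clear lenses. For Cat+, *Lss*s/*Lss*l animals were used, which carry the mutant allele of lanosterol synthase and develop cataract. The study saw mild opacity in Cat+ lenses already at this age, so genotype and opacity differ together between the groups. SCRs are also known for an *Fdft1* allele, and the *Fdft1* genotype of these samples is not given in the sources used here. LECs were removed along with the lens capsule, and RNA from 2 eyes was run on 1 GeneChip Rat Gene 2.0 ST array per condition. With 1 array each there was no replicate check, the spread between animals is unknown and no test was run. Every difference below compares those 2 arrays.

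Lens cells hold cytosolic calcium far below that of the fluid around them. Sodium-calcium exchangers and ATP-driven pumps carry calcium out across the plasma membrane, pumps of the SERCA type load it into the endoplasmic reticulum, and EF-hand proteins such as parvalbumin and the calbindins bind it in the cytosol. A rise in lens calcium is a known feature of cortical cataract, and calcium loss from the epithelium toward the outside passes through both pumps and exchangers. Fibers are formed from these epithelial cells at the lens equator.

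The 5′ flanks of *Slc24a2* and *Pvalb*, the genes with the largest differences, are shown as the sequence upstream of each. They come from the RefSeq promoter table for rat build GRCr8, which had an entry for 8 of the 10 genes and none for *Calb1* and *Calb2*. The *Pvalb* stretch holds the 250 bases before the start site, chr7:111666290-111666539 on the minus strand, and its start site lies 2180 bases inside the annotated span of the gene. The *Slc24a2* stretch holds 220 bases on the minus strand at chr5:106787811-106788030, outside the annotated span of the gene, and ends 30 bases before the start site, which lies inside that span.
Pvalb: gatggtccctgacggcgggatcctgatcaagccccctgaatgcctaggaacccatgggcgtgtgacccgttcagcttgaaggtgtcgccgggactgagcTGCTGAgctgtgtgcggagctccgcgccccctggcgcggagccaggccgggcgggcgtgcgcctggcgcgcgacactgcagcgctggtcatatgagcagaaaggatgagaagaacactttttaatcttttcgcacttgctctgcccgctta
Slc24a2: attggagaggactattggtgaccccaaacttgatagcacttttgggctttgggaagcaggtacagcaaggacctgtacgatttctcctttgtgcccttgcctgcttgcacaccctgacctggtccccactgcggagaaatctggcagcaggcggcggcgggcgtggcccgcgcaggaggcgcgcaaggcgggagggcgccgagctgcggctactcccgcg
Capitals mark the only match to TGCTGA, the half-site of MAF factors, at bases 100 to 105 of the *Pvalb* stretch. On both strands of the 250 bases before each start site, TGCTGA was found in 1 of the 8 genes, against 15.1% of 33469 rat promoters. The core of the heat shock element, GAANNTTC, was in 0 of the 8 (7.23% of promoters) and the TATA box, TATAAA, in 0 (12.9%). The GC box GGGCGG was in 5, namely *Pvalb*, *Atp2a2*, *Atp2a3*, *Atp2b1* and *Atp2b2*, against 30.5% of promoters. GC content was 62.8% for *Pvalb* and 80% for *Atp2a2*, beside a median of 51.2% over all promoters. Of the genes without the box, *Atp2b4* and *Slc8a1* had 46.4% and 35.2%, and *Slc24a2* had 63.2% over its 220 bases. The start sites of *Atp2b4* and *Slc8a1* lie 48513 and 48061 bases inside the annotated span of each gene. The part of base composition in the count was not tested. In the *Pvalb* stretch it lies at bases 148 to 153, apart from TGCTGA. A match is a description of the letters only.

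*Slc24a2* and *Pvalb* had the lowest fold changes of the 10 genes, followed by *Calb2*. Fold changes, Cat+ over Cat-, were 0.284 for *Slc24a2*, 0.418 for *Pvalb*, 0.549 for *Calb2* and 0.793 for *Slc8a1*. The other 6 genes, all of the pumps and *Calb1*, had fold changes between 0.923 and 1.06. Under the size rule of the study, a fold change under 0.5 or over 2, *Slc24a2* and *Pvalb* passed in the lower direction and none passed in the higher. Over all genes, 0.308% were under 0.5 and 0.0055% were over 2. These counts describe the choice of genes, since *Slc24a2* and *Pvalb* were known to be low when the list was made. *Pvalb*, at 0.418, was the gene just inside the rule and *Calb2*, at 0.549, the one just outside. In bulk samples such as these, fewer cells of a type and less RNA per cell cannot be told apart.

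**Figure D1:**
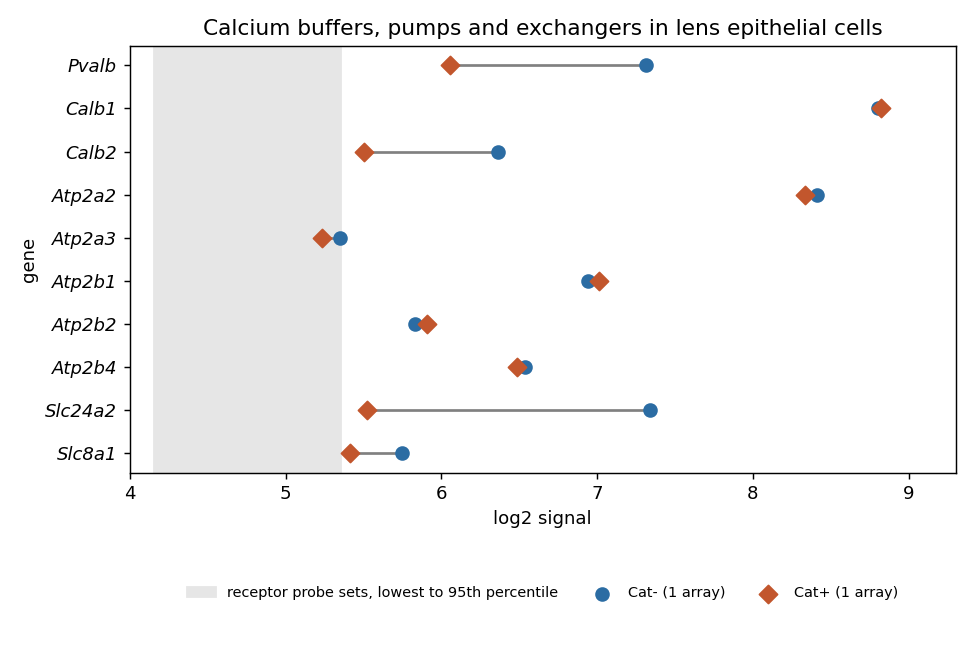
Log2 signal (x axis) of each of the 10 genes (y axis) in the Cat- array (circles) and the Cat+ array (diamonds), with a line joining the 2 values. The grey band runs from the lowest value to the 95th percentile of 232 olfactory and vomeronasal receptor probe sets. The long lines belong to *Slc24a2*, *Pvalb* and *Calb2*, and the next longest, at a difference of -0.33, to *Slc8a1*.

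The array table has no detection calls, so a low reference was taken from 232 probe sets of olfactory and vomeronasal receptor genes, families not known for expression in lens. Their 95th percentile was at a log2 signal of 5.35 in both arrays. Probe sets differ in how strongly they bind, so this level is only a guide. The log2 differences of probe sets that name the same gene, in 291 genes, had an SD of 0.17, a factor of 1.13, which covers probe sets and not animals.

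Among the exchangers, *Slc24a2* encodes NCKX2, which trades sodium for calcium together with potassium and is known from cone photoreceptors and neurons. It measured 7.34 in Cat- against 5.53 in Cat+ on the log2 scale, a difference of -1.81. This was the lowest of the 10 genes, and 17 of the 18166 genes on the array were lower. The Cat+ value lay 0.18 above the receptor reference and the Cat- value 1.99 above it. *Slc8a1* encodes NCX1, the widely expressed exchanger that trades sodium for calcium. Its signal measured 5.75 in Cat- against 5.41 in Cat+ on the log2 scale, a difference of -0.33, or 1.94 times the SD between probe sets. In Cat+ it stood 0.07 above the reference, so the difference was read near the bottom of the scale, and 4.82% of all genes had a lower one.

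The other members of both exchanger families did not share the size of the *Slc24a2* difference. Of 6 listed, all were measured, with 3 lower and 3 higher in Cat+ and a median fold change of 1.06. *Slc24a4*, the potassium-dependent exchanger best known from enamel and olfactory neurons, measured 7.82 in Cat- against 7.36 in Cat+ on the log2 scale, for a fold change of 0.726. *Slc24a1*, the exchanger of rod photoreceptors, was higher, with log2 values of 5.65 (Cat-) and 5.96 (Cat+), giving a fold change of 1.24. *Slc24a5*, the exchanger of pigment cell organelles, had a fold change of 1.18. *Slc24a3*, read from its own probe set, had log2 values of 6.44 (Cat-) and 6.34 (Cat+), giving a fold change of 0.934. *Slc8a2* and *Slc8a3*, the other sodium-calcium exchangers, were at 1.15 and 0.973. None of these 6 genes was 1.5-fold apart in either direction, beside 0.991% of all genes lower and 0.204% higher.

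Among the buffers, *Pvalb* encodes parvalbumin, an EF-hand calcium binder of muscle and of certain neurons. It measured 7.31 in Cat- against 6.05 in Cat+ on the log2 scale, a difference of -1.26, and 36 genes on the array were lower. Both values were above the receptor reference, by 1.96 in Cat- and by 0.71 in Cat+. *Calb2* encodes calretinin, a buffer and calcium sensor of retinal and brain neurons. Its signal measured 6.36 in Cat- against 5.50 in Cat+ on the log2 scale, a difference of -0.86, and 77 genes were lower. The Cat+ value was 0.15 above the reference, close to the receptor level. *Calb1* encodes calbindin, a relative of calretinin with the same EF-hand architecture. It measured 8.80 in Cat- against 8.82 in Cat+ on the log2 scale, for a fold change of 1.02, at 3.45 log2 units above the reference in Cat- and 3.48 in Cat+. The 3 buffers thus ranged from 0.418 to 1.02.

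A list of other EF-hand buffers and sensors showed nothing of that size. Of 16 listed, 13 were measured, with 9 lower and 4 higher in Cat+ and a median fold change of 0.989. The largest differences were those of *Ncald*, neurocalcin, at 0.862, of *Ncs1*, a neuronal calcium sensor, at 0.870, and of *Calm2*, a calmodulin gene, at 1.12. *Ocm*, oncomodulin, the parvalbumin of outer hair cells, had log2 values of 5.77 (Cat-) and 5.63 (Cat+), giving a fold change of 0.911. *Scgn*, secretagogin, was under the receptor reference in both arrays, at 4.93 and 4.90.

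The pumps of the endoplasmic reticulum were close to equal in both samples. *Atp2a2* encodes SERCA2, the pump that fills the store in most cell types. It measured 8.41 in Cat- against 8.33 in Cat+ on the log2 scale, for a fold change of 0.946. *Atp2a3* encodes SERCA3, known from blood cells and some epithelia, and had log2 values of 5.35 (Cat-) and 5.23 (Cat+), giving a fold change of 0.923. Both *Atp2a3* values lay at or under the receptor reference, so its signal was not told apart from that of the receptors. *Atp2a1*, the SERCA of fast muscle, has no probe set that names it alone and was not analysed here.

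The plasma membrane pumps likewise showed differences smaller than the SD between probe sets. *Atp2b1*, the housekeeping pump PMCA1, measured 6.94 in Cat- against 7.01 in Cat+ on the log2 scale, for a fold change of 1.05. *Atp2b2*, or PMCA2, known from hair cells and neurons, had log2 values of 5.83 (Cat-) and 5.91 (Cat+), giving a fold change of 1.06. *Atp2b4*, or PMCA4, a widely expressed form, had log2 values of 6.54 (Cat-) and 6.49 (Cat+), giving a fold change of 0.967. All 3 were above the reference in both arrays, *Atp2b2* by the smallest margin, 0.48 in Cat- and 0.56 in Cat+. Of 6 other pumps and pump regulators, 4 were measured, with a median fold change of 1.11. They were *Atp2b3* at 1.08, the Golgi pump gene *Atp2c1* at 0.951, and *Pln* and *Sln*, which encode the SERCA inhibitors phospholamban and sarcolipin, at 1.17 and 1.13.

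**Figure D2:**
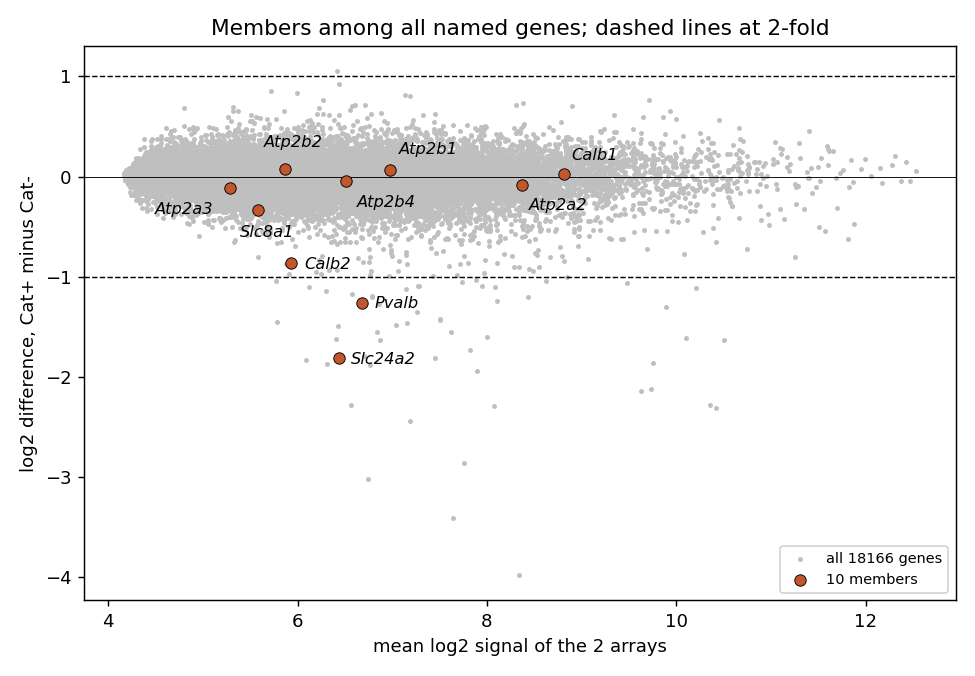
Log2 difference, Cat+ minus Cat- (y axis), against the mean log2 signal of the 2 arrays (x axis) for 18166 genes in grey and the 10 genes in orange; dashed lines mark 2-fold. *Slc24a2* at -1.81 and *Pvalb* at -1.26 lie under the lower line, *Calb2* at -0.86 just above it, and the pumps and *Calb1* lie inside the grey cloud.

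By direction, 7 of the 10 genes were lower in Cat+ and 3 were higher, beside 51.2% of all genes lower and 48.8% higher. The median log2 difference of the 10 was -0.10, a fold change of 0.934, beside a median fold change of 0.997 over all genes. At a milder size rule of 1.5-fold, 3 of the 10 were lower, with 0.991% of all genes, and none was higher, with 0.204% of all genes. The counts by direction and at 1.5-fold also describe the choice of genes, which was made with earlier results of these arrays known. A difference under the SD between probe sets was found in 6 of the 10 and in 68.4% of all genes. Over all genes, the 5th percentile of the log2 differences was -0.33 and the 95th was 0.28. *Slc8a1*, at -0.33, thus lay at the 5th percentile, and the pumps and *Calb1* lay between both.

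The wider set of calcium handling genes was described from 10 lists of textbook members. Of 120 genes, 110 were measured, 56 lower and 54 higher in Cat+, with a median fold change of 0.999. None passed the 2-fold size rule, beside 0.308% of all genes under 0.5 and 0.0055% over 2. At 1.5-fold *Prkca* was lower and no gene was higher, beside 0.991% of all genes lower and 0.204% higher. *Prkca* encodes protein kinase C alpha, which is activated by calcium and diacylglycerol. Its signal measured 7.46 in Cat- against 6.48 in Cat+ on the log2 scale, for a fold change of 0.505, next to the size rule. In its list of calcium-dependent kinases, calcineurin and NFAT factors, 17 of 20 were measured, 9 lower and 8 higher. The calcium-dependent crosslinking enzyme *Tgm2*, transglutaminase, was at 0.788 and *Camk4*, a calmodulin-dependent kinase gene, at 0.853, whereas the calcineurin catalytic gene *Ppp3ca* was at 1.12.

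Proteins of the store lumen had even signals, with 13 of 13 measured, 6 lower, 7 higher and a median fold change of 1.01. *Nucb2*, nucleobindin, was at 1.20, *Sdf4*, a Golgi calcium binder, at 1.15 and *Hsp90b1*, the chaperone and calcium binder GRP94, at 1.13. Calreticulin, encoded by *Calr*, had log2 values of 10.72 (Cat-) and 10.78 (Cat+), giving a fold change of 1.05. Both calsequestrin genes of muscle, *Casq1* and *Casq2*, were under the receptor reference in both arrays. Of 10 release channels and related genes, 6 were lower and 4 higher. The inositol trisphosphate receptors *Itpr2* and *Itpr3* were at 0.842 and 0.881, and *Itpr1* at 1.07, while *Tmbim6*, a leak channel regulator, was at 0.920.

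Among calcium entry genes, the store-operated list was close to equal in both samples and the voltage-gated subunits spread wider. For store-operated entry, 6 of 6 genes differed by less than the SD between probe sets. The store sensor *Stim2* was at 0.902 and *Stim1* at 1.03, and the channel genes *Orai3* and *Orai1* at 0.944 and 0.947. Of 17 measured voltage-gated channel subunits, 6 were lower and 11 higher, and 8 differed by less than that SD. The T-type channel gene *Cacna1g* had log2 values of 6.71 (Cat-) and 6.35 (Cat+), giving a fold change of 0.781. The accessory subunits *Cacna2d3* and *Cacna2d4* were at 1.22 and 1.17. *Cacna2d3*, like *Cacna1c* and *Cacnb4*, was under the reference in both arrays.

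For mitochondrial calcium, 8 of 9 genes were measured, 5 lower and 3 higher, with a median fold change of 0.959. *Mcur1*, a regulator of the uniporter, was at 1.17, *Letm1*, an inner membrane ion exchanger, at 0.881 and *Slc8b1*, the mitochondrial sodium-calcium exchanger, at 1.12. The pore gene *Mcu* was at 0.980. Among 16 receptors and phospholipases that release calcium, 7 were lower and 9 higher, with a median fold change of 1.01. Phospholipase genes stood at both ends, with *Plcb4* at 1.25 and *Plce1* at 0.866, and the nucleotide receptor *P2ry6* was at 1.15.

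**Figure D3:**
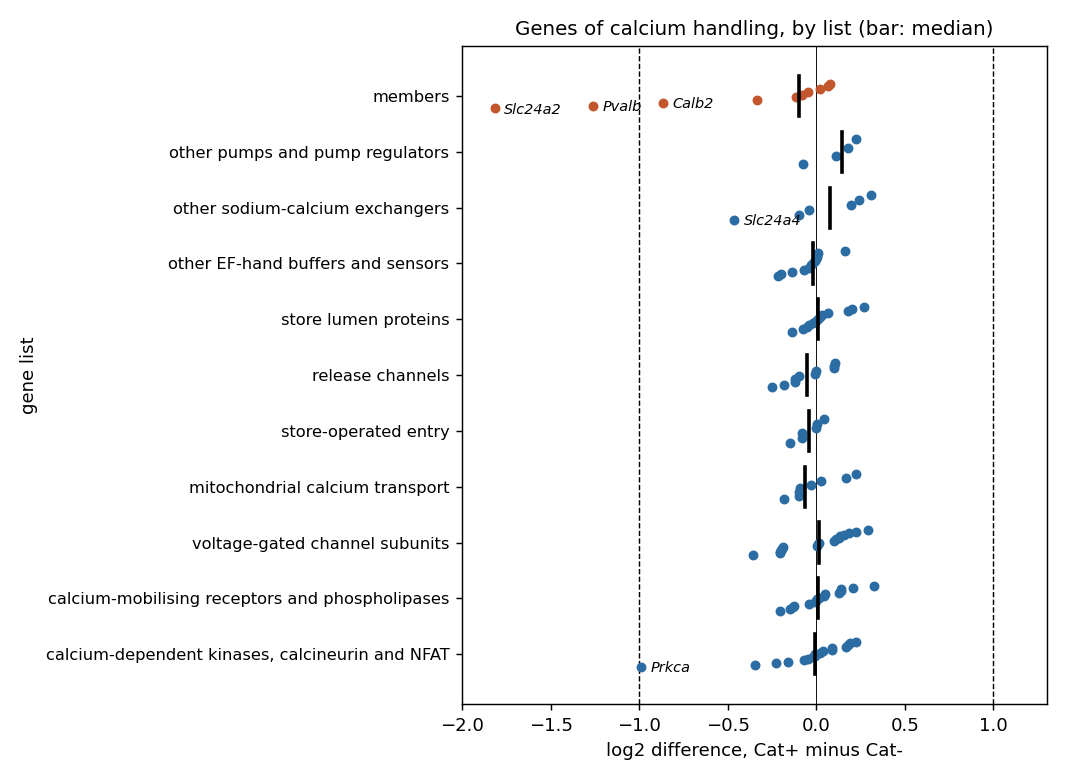
Log2 difference, Cat+ minus Cat- (x axis), of the 10 genes (orange) and of 110 other measured genes in 10 lists of calcium handling (blue); each point is a gene, black bars are list medians and dashed lines mark 2-fold. *Prkca*, at a fold change of 0.505, is the blue point farthest from 0, and *Slc24a2*, *Pvalb* and *Calb2* are the orange points farthest to the left.

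Markers of fibers moved in the same direction as *Slc24a2*, *Pvalb* and *Calb2*. All 12 measured of 14 fiber markers were more than 1.5-fold lower in Cat+, with a median fold change of 0.275, and their summed linear signal was 19893 in Cat- and 7612 in Cat+. The largest differences were those of *Lgsn*, lengsin, at 0.0636, *Cryge*, a gamma crystallin, at 0.185 and *Mip*, the fiber water channel, at 0.202. Several of these genes were picked as low by the study on these arrays, so the list is not independent evidence of its direction. Of 8 epithelial markers, which bear on the labelled cell type, 6 were higher and none was under the receptor reference, with a median fold change of 1.12. Their summed signal was 13095 in Cat- and 13506 in Cat+. *Slc7a11*, a cystine transporter, was at 1.29, *Itga6* at 0.838 and *Foxe3*, the epithelial transcription factor, at 1.14. The part of fiber material in the differences of *Slc24a2*, *Pvalb* and *Calb2* was not tested.

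Since the 3 buffers and NCKX2 are also known from retinal neurons, retina markers were read beside them. Of the buffers, *Calb1* was at 1.02, unlike *Pvalb* at 0.418 and *Calb2* at 0.549. Of 18 measured inner retina markers, 14 were lower and 4 higher, with a median fold change of 0.944, and their summed signal was 3662 in Cat- and 3399 in Cat+. Of that sum, *Slc6a9*, *Prox1* and *Tfap2a* held 66.2% in Cat- and 69.4% in Cat+. *Prox1* and *Tfap2a* are also known from lens, so the sum is not a measure of retinal RNA alone. The other 15 genes summed to 1239 in Cat- and 1039 in Cat+. *Prkca*, which also marks rod bipolar cells, was at 0.505, and *Trpm1*, the channel of ON bipolar cells and of pigment cells, had log2 values of 7.11 (Cat-) and 6.39 (Cat+), giving a fold change of 0.605. *Grm6*, the glutamate receptor of ON bipolar cells, was at 0.960 with log2 signals of 6.17 and 6.11. The next largest difference was that of *Gad1*, the GABA enzyme of amacrine cells, at 0.860. *Gad2*, *Lhx1*, *Nefm* and *Tfap2b*, which mark amacrine, horizontal and ganglion cells, were under the receptor reference in both arrays. Photoreceptor markers were mixed, with 7 of 9 higher in Cat+, 2 lower, a median fold change of 1.28 and a summed signal of 1872 in Cat- and 2471 in Cat+. *Gnat1*, rod transducin, was at 1.51, *Sag*, arrestin, at 1.37 and *Pde6b*, the rod phosphodiesterase, at 1.34. The 2 lower genes were *Opn1sw*, a cone opsin, with log2 values of 6.44 (Cat-) and 6.03 (Cat+) and a fold change of 0.751, and *Crx*, a photoreceptor transcription factor, at 0.817. The part of retinal RNA in the *Slc24a2*, *Pvalb* and *Calb2* values was not tested.

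None of the remaining marker lists was lower throughout in Cat+. Of 7 measured muscle markers of iris and ciliary body, 4 were lower and 3 higher, with a summed signal of 324 in Cat- and 327 in Cat+. Their largest differences were those of *Acta1* at 1.29, *Tnni1* at 0.818 and *Tnnt2* at 0.886, and *Myh8* and *Myl1* were under the reference in both arrays. All 6 measured pigment cell markers were higher, with a median fold change of 1.12 and a summed signal of 1607 in Cat- and 1815 in Cat+; *Tyr* was at 1.20, *Mlana* at 1.18 and *Tyrp1* at 1.13. Macrophage and leukocyte markers were higher in 9 of 10 cases, with a median of 1.26, a summed signal of 1112 in Cat- and 1578 in Cat+, and the largest differences in *Cd68* at 1.90, *Lyz2* at 1.64 and *C1qb* at 1.47. Blood and endothelium had 2 measured genes of 8, *Cdh5* at 1.09 and *Tek* at 0.899, with a summed signal of 126 in each array.

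**Figure D4:**
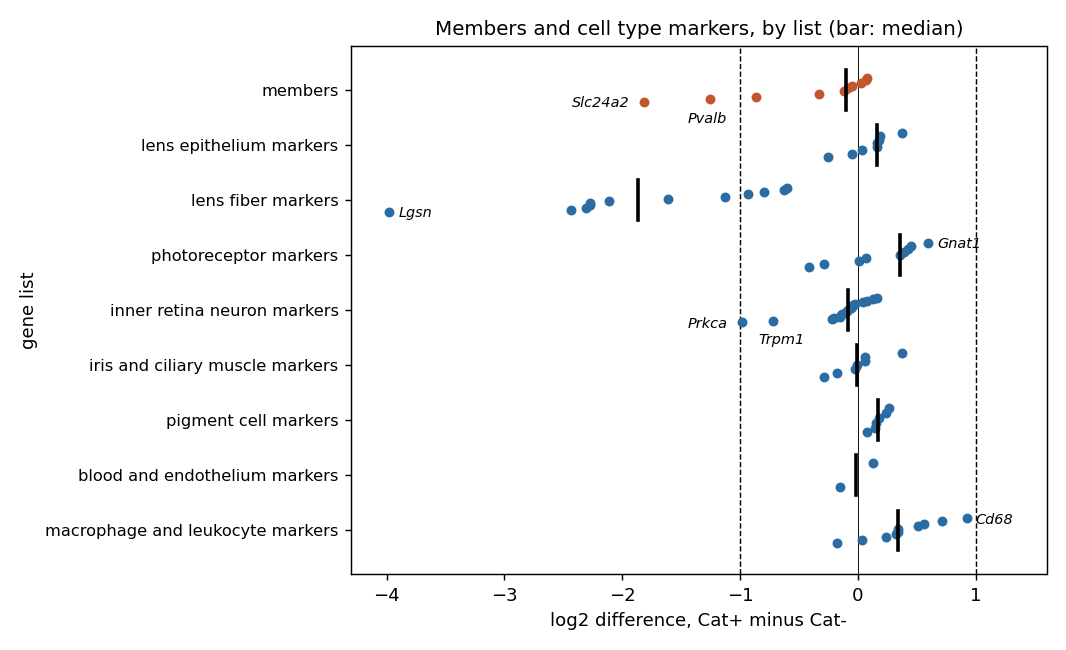
Log2 difference, Cat+ minus Cat- (x axis), of the 10 genes (orange) and of the measured genes of 8 cell type marker lists (blue); each point is a gene, black bars are list medians and dashed lines mark 2-fold. The fiber markers, with a median fold change of 0.275, are the list farthest to the left, and the photoreceptor list, with a median of 1.28, lies to the right of 0.

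Across the series, *Lss*, the gene that sets the groups, measured 6.46 in Cat- against 6.50 in Cat+ on the log2 scale. The groups were set by PCR of tail DNA, and the *Lss* signal does not check them.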

How the data were processed

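The authors deposited log2 signals of 29870 probe sets on 2 arrays (GeneChip Rat Gene 2.0 ST, 1 per condition), each array normalized by a specific control or by its average intensity, with genes then selected by ratio in GeneSpring. How background was corrected and probes were summarized, and on which genome build, is not given in the sources used here. The log2 scale was inferred from their range. For arrays, precision is limited by their number. The log2 difference Cat+ minus Cat- was computed with no further normalization or filter. The platform annotation names 1 gene for 18511 probe sets, several for 575 and none for 10784, and a gene with several probe sets took the brighter. The members and gene lists were chosen with earlier results of these data known. Genes named are the 10 members, every gene of a calcium list more than 1.5-fold apart, otherwise its 3 largest differences, and the 3 largest of each marker list with markers under the reference; *Slc24a3*, *Slc8a2*, *Slc8a3*, *Atp2c1*, *Ocm*, *Scgn*, *Calr*, *Casq1*, *Casq2*, *Itpr1*, *Stim1*, *Cacna1c*, *Cacnb4*, *Mcu*, *Tgm2*, *Camk4*, *Ppp3ca*, *Lss*, *Slc6a9*, *Prox1*, *Tfap2a*, *Opn1sw*, *Crx* and *Grm6* fall outside this rule and were named after their values were seen. The calls by fold change were run on simulated arrays for 18166 genes, Cat+ over Cat-. There, 100 of 100 genes made 4-fold lower and 100 of 100 made 4-fold higher were recovered, with 0 of 17966 unchanged genes. The simulated noise was scaled to these 2 arrays and held no spread between animals. A 4-fold change also exceeds every member difference, of which *Slc24a2*, 3.52-fold lower, had the largest. The outcome thus checks the computation only and gives no error rate for the calls. Alternatives covered scaling, filters, a floor, the choice of probe set and the size rule. Computation ran in Python 3.11.15 with pandas 2.3.3 and NumPy 2.4.6, with loess from statsmodels 0.14.6 and plots from matplotlib 3.10.9.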

Additional observations from a re-analysis of the deposited data

How the results depend on the processing

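Of 11 alternatives of scaling, filter, floor, probe set and size rule, only those of scaling could change the value of a member. Under these, each of the 10 genes kept the direction of its difference. The log2 difference of *Slc24a2* ran from -1.83 to -1.80, that of *Pvalb* from -1.27 to -1.24, that of *Calb2* from -0.88 to -0.86 and that of *Slc8a1* from -0.35 to -0.33. Each of the 10 genes has 1 probe set and no value under the floor, so neither the choice of probe set nor the floor could change a value. The filters only leave genes out, and the size rule only changes counts. With a 3-fold size rule, 1 gene, *Slc24a2*, remained past it in place of 2. Among the other calcium handling genes, 1 was past the rule in place of 0 with a 1.5-fold rule, and 1 when the arrays were centred on their medians; in both cases it was *Prkca*, which lies next to 2-fold. *Atp2a3* was left out by both filters on low signal. No replicate could be left out, and no paired analysis was possible because each group has 1 sample. Signals near the receptor reference, *Atp2a3* in both arrays and *Slc24a2*, *Calb2* and *Slc8a1* in Cat+, leave little range for a lower value to show.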
